A study of Mus musculus with 8 samples.

Results

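The secreted Wnt antagonist genes Sfrp1, Sfrp2, Sfrp4, Sfrp5, Frzb, Dkk1, Dkk2, Dkk3, Dkk4 and Wif1 were examined for DNA methylation differences in mouse colon organoids. They are 10 of 21887 protein-coding genes of the RefSeq annotation of GRCm38, and were taken by name, as the families that encode secreted inhibitors of Wnt signalling. For each gene, every deposited 200 bp tile that overlapped the annotated gene with 2 kb on either side was used. The assay was reduced representation bisulfite sequencing, in which CpG-rich restriction fragments are read after bisulfite has converted unmethylated cytosines.

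The organoids came from proximal colon crypts of male mice about 40 days old that were heterozygous for a Cre-activable BrafV600E allele (Braf+/LSL), so every library, controls included, carries that allele and had received a lentivirus. BrafV600E encodes a BRAF kinase that signals without upstream activation. In the BrafV600E group, lentiviral Cre had switched the allele on and the organoids, cultured for 5 months, had been selected in Base medium, which has no stem-cell niche factors. Its control received the lentiviral backbone alone (empty vector), was also cultured for 5 months, and stayed in full medium, which contains Wnt3a, R-Spondin and Noggin conditioned media and EGF. The long-cultured group is empty-vector organoids in full medium for 12 months (line 1) or 14 months (line 3), set against empty-vector organoids at 2 months. Each of the 4 groups has 2 libraries, from organoid lines 1 and 3, and all had a last culture of 3 weeks. Whether the lines came from separate mice is not stated in the labels. Oncogene, Cre, medium and selection in that medium changed together in the BrafV600E comparison and cannot be told apart. The labels disagree for 2 libraries: the line 1 BrafV600E library names line 3 in another field, and the 14-month library is tagged 2 months elsewhere; the titles were followed.

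Secreted Wnt antagonists keep Wnt ligands from activating their receptors. The secreted frizzled-related proteins (Sfrp1, Sfrp2, Sfrp4, Sfrp5 and Frzb, also called Sfrp3) carry a frizzled-like cysteine-rich domain and bind Wnt proteins, as does Wif1, whereas Dkk1, Dkk2 and Dkk4 bind the Lrp5 and Lrp6 co-receptors. Dkk3 is related to the other Dkk proteins but does not act on these co-receptors in the same way. In human colorectal cancer, SFRP, DKK and WIF1 promoters are well known to be hypermethylated.

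The values are differences in percent methylation between 1 library and 1 library of the same line, in percentage points. The deposited tables list only tiles with a difference of at least 20 points and a q-value of at most 0.01. Read counts are absent from them. The depth of a tile is therefore unknown, and no value has a replicate error within its line. The 2 lines are the only replicates; no test over them was run, since the smallest two-sided p that flipping the signs of 2 differences can give is 0.5. A tile that is not listed may be unchanged or not covered. No RNA was used here, so whether the genes were expressed, and whether the cells carried colon epithelial markers, was not examined.

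RefSeq start positions were at hand for 6 of the 10 genes. The 250 bases upstream of the start are shown for 3 genes whose listed tiles reach into that window, Sfrp2 (chr3:83766071-83766320, plus strand), Sfrp5 (chr19:42202253-42202502, minus strand) and Frzb (chr2:80447397-80447646, minus strand), and for Wif1 (chr10:121033754-121034003, plus strand), whose window is the richest in CpG of the 6 and had 0 listed tiles. The sequences are from RefSeq, build GRCm38.p6, 5′ to 3′, with every CpG, the dinucleotide at which methylation is read, in capitals.
Sfrp2: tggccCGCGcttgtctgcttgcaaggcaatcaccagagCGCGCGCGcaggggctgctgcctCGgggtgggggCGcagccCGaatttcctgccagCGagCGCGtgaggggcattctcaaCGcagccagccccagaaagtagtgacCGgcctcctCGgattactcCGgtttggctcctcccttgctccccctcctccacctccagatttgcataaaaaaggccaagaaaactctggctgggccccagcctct
Sfrp5: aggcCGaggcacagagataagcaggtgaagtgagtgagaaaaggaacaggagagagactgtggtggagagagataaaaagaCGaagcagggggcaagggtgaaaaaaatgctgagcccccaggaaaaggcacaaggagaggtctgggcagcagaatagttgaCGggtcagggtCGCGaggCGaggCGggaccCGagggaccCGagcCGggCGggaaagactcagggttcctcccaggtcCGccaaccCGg
Frzb: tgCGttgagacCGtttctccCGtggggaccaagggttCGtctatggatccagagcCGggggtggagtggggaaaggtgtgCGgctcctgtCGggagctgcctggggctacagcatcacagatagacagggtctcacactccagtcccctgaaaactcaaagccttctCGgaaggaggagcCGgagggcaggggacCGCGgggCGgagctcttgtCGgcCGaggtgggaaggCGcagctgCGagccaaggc
Wif1: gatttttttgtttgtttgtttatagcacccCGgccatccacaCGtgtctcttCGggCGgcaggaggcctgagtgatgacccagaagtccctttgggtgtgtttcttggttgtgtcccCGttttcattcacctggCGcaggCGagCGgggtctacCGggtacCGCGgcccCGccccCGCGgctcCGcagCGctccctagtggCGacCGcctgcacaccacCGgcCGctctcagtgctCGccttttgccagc

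These windows hold 16 CpGs in Sfrp2, 13 in Sfrp5, 16 in Frzb and 21 in Wif1, against a median of 6 over 32851 promoter windows of the same length. All 16 CpGs of the Sfrp2 window lay inside listed tiles by position, as did 11 of the 13 in Sfrp5 and 12 of the 16 in Frzb. Which of these CpGs were read is unknown. The windows of Dkk1 and Dkk2 are poorer, with 6 and 7 CpGs, and had 0 listed tiles. The motif CCGG, a palindrome that reads the same on both strands, holds a CpG and is the site at which the enzyme MspI, commonly used in this assay, cuts. It occurred 2 times in each of the Sfrp2, Sfrp5 and Frzb windows, 3 times in Wif1, 1 time in Dkk1 and 0 times in Dkk2, and 47.1% of all promoter windows hold at least 1.

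Over the 4 within-line comparisons, 9 of the 10 genes had at least 1 listed tile, beside 44.9% of all protein-coding genes, with 39 distinct tiles listed 60 times. Of these listings 44 were gains and 16 were losses. Centred within 2 kb of an annotated end were 52 of the 60 listings, beside 51.1% of the listings at all protein-coding genes. Gains were 42 of those 52, beside 73.6% near the ends of all genes, and 2 of the 8 farther inside, beside 50.6%. Sfrp2 had 16 listings and Sfrp1 12, and both were listed in all 4 comparisons. Frzb had 7 listings, Dkk2 6, Sfrp5, Dkk1 and Dkk3 5 each, Wif1 3 and Sfrp4 1. Dkk4 (chromosome 8, 22623685 to 22628018) had 0.

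**Figure D1:**
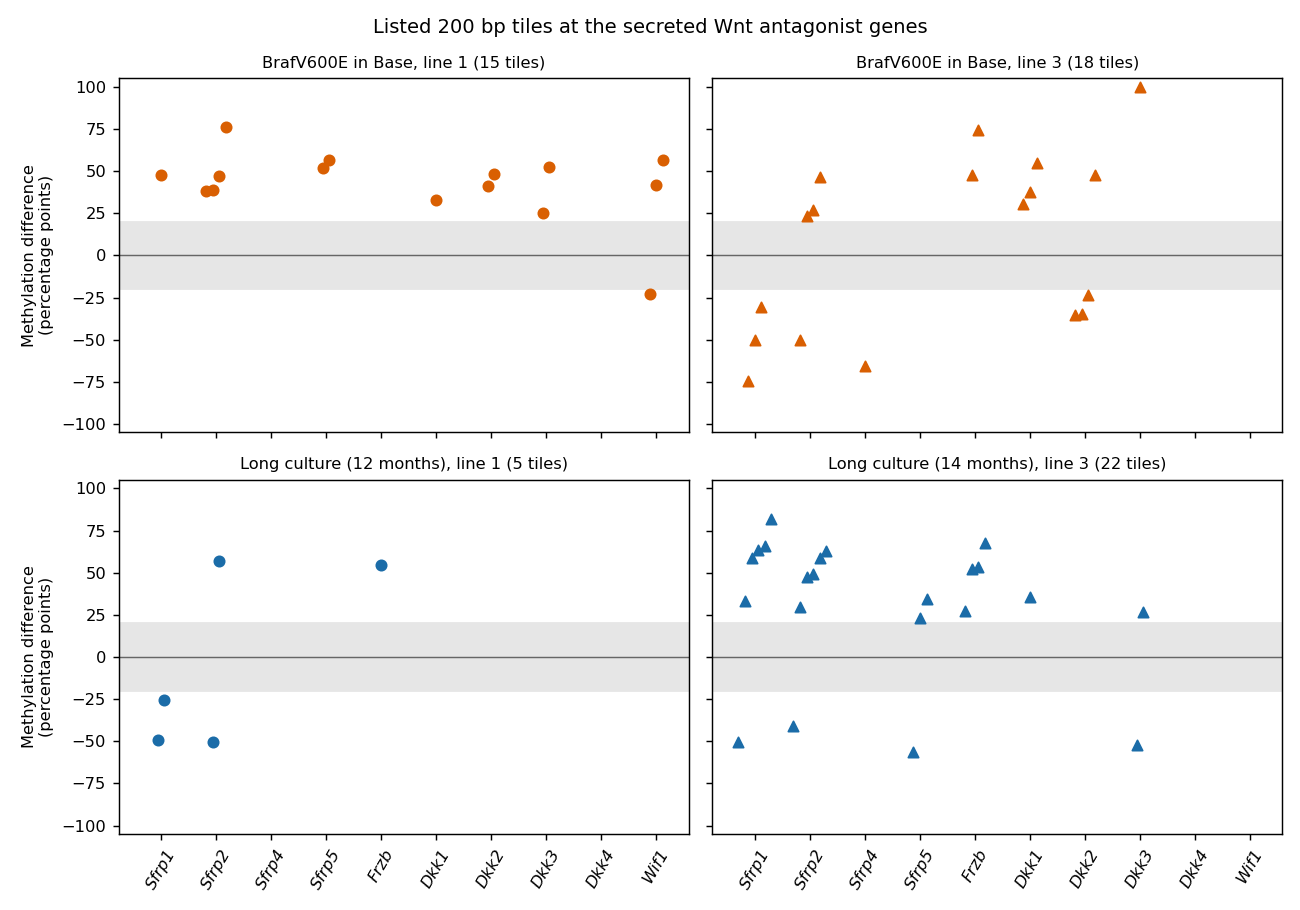
Each point is a listed 200 bp tile at the gene on the x axis, and the y axis gives the authors' methylation difference in percentage points; a panel is 1 within-line comparison, and the grey band marks differences under 20 points, which the tables do not list. In line 1 with BrafV600E 14 of 15 tiles gained, in line 3 10 of 18, and with long culture line 3 had 22 tiles against 5 in line 1.

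The first comparison set BrafV600E organoids selected in Base medium against their empty-vector counterparts at 5 months, line by line. Sfrp2, Dkk1, Dkk2 and Dkk3 had a gained tile in both lines, which 11.3% of all protein-coding genes did, and Sfrp1, Sfrp5, Wif1 and Frzb in 1 line. With q under 0.001, or with at least 2 gained tiles in each line, the count for both lines was 1 instead of 4, Sfrp2 in each case. Line 1 was almost all gain, with 7 genes gaining and Wif1 alone also losing, while in line 3 5 genes gained and 4 lost. Dkk1 and Sfrp2 gained at the same tiles in both lines, Dkk2 moved in opposite directions at the same tiles, and no gene lost a tile in both lines, against 6.07% of all genes.

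In line 1 7 of the 10 genes gained, where 17.8% of all protein-coding genes had a gained tile, and 1 lost, where 10.5% did. In line 3 5 gained against 20.9% of all genes, and 4 lost against 20.4%. In at least 1 line 8 gained, against 27.4% of all genes, and 5 lost, against 24.8%. Many genes have no tile in any table and may never have been covered. The same counts were therefore also set against the 9828 genes with a listed tile somewhere. Of the 9 listed members 8 gained, against 61.1% of those genes, and 5 lost, against 55.3%. That set was picked by having a listed tile, so it leaves out covered but unchanged genes and does not account for coverage. The members' share of losses in at least 1 line was near that of this set and above that of all genes. Of all listed tiles 67.5% were gains in line 1 and 40.4% in line 3, and at the members 14 of 15 and 10 of 18 were. The members' median gain was 47.6 points in line 1 and 47.3 in line 3, beside 42.8 and 44.1 over all gained tiles of the authors' deposited tables. Without line 1, whose BrafV600E library has the conflicting label, 5 members gained, with 10 gained and 8 lost tiles; without line 3 there were 14 gained tiles and 1 lost tile.

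**Figure D2:**
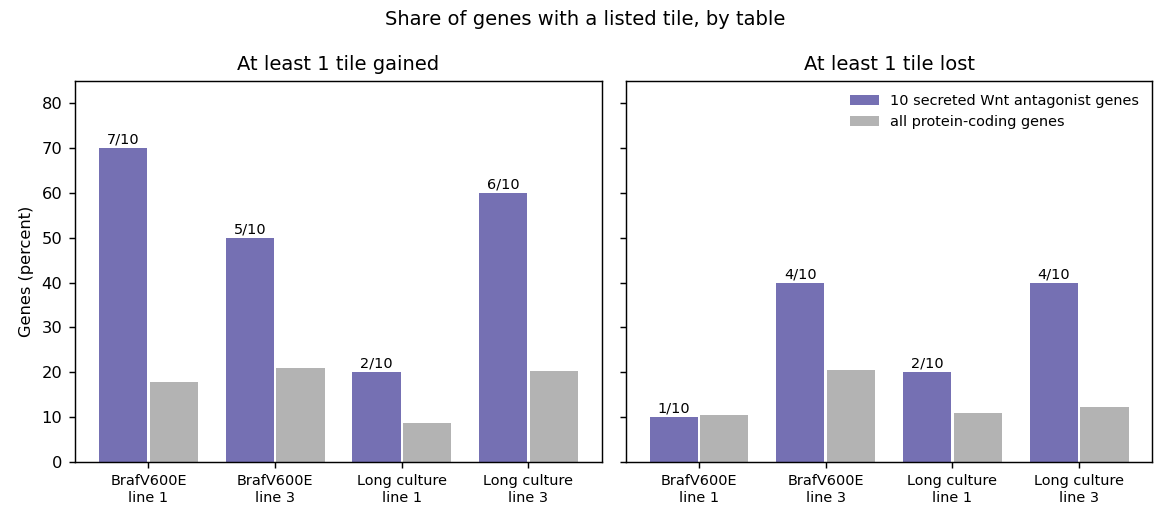
Bars give the percent of genes with at least 1 listed tile gained (left) or lost (right) in the gene with 2 kb on either side, for the 10 secreted Wnt antagonist genes and for all 21887 protein-coding genes, in each within-line comparison. The share of gaining members ranged from 2 of 10 to 7 of 10, above the bar of all genes in each comparison. With BrafV600E the share of losing members was 1 of 10 in line 1, beside 10.5% of all genes, and 4 of 10 in line 3, beside 20.4%. With long culture it was 2 of 10 in line 1, beside 10.9%, and 4 of 10 in line 3, beside 12.2%.

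Among the Wnt-binding antagonists, Sfrp2 (chromosome 3, 83765750 to 83774314) gained around its RefSeq start, which lies inside the annotated span. The tile that spans the start (83766201 to 83766400) gained 38.7 points in line 1 and 26.9 points in line 3, per the authors' deposited tables. The next tile into the gene, centred 179 bp past the start, had gains of 37.9 points (line 1) and 23.1 points (line 3), again from the authors' deposited tables. The lines therefore shared a gain at these neighbouring tiles, larger in line 1. The tile just upstream (83766001 to 83766200) was listed in line 1 alone, at 76.1 points, in the authors' deposited table. About 2 kb upstream, line 1 gained 47.4 points at 83764001 and line 3 46.8 points at the adjoining tile, per the authors' deposited tables. The one loss at Sfrp2, of -50.0 points in the authors' deposited table for line 3, lay 779 bp past the start.

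Sfrp5 (chromosome 19, 42197971 to 42202252), which was listed in line 1 and not in line 3, gained at the tile over its start and at the tile next to it. The differences were 56.6 points at 42202201 to 42202400 and 51.7 points at 42202001 to 42202200 in the authors' deposited table. Frzb (chromosome 2, 80411970 to 80447396) was the reverse case, listed in line 3 and not in line 1. It gained 48.0 points at the tile centred 104 bp upstream of its start and 74.3 points at the tile centred 904 bp upstream in the authors' deposited table for line 3. Neither gene lost a tile in this comparison.

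Sfrp1 (chromosome 8, 23411383 to 23449632) differed in direction between the lines. Line 1 gained 47.9 points at the first tile inside the lower-coordinate end of the gene (23411401 to 23411600), its sole listed tile, per the authors' deposited table. Line 3 had 3 losses, of -30.7 points at the tile centred 517 bp into the gene and of -50.0 and -74.4 points at those centred 3317 and 3517 bp in, per the authors' deposited table. No Sfrp1 tile was listed in both lines, so the opposite directions were at different places. Sfrp4 (chromosome 13, 19623175 to 19632825) had 1 tile, which lost methylation in line 3 (-65.4 points in the authors' deposited table), centred 125 bp inside its lower-coordinate end. Between 2 and 5 kb outside that end a further tile (19619601 to 19619800), inside the neighbouring gene Epdr1, gained 47.8 points in the same table, so that with 5 kb on either side the Sfrp4 mean was -8.80 points in the authors' deposited table.

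Wif1 (chromosome 10, 121034004 to 121100642) was listed in line 1 alone and far from its start. A pair of adjoining tiles, the nearer centred 62296 bp downstream of the start, gained 41.6 and 56.5 points, and a tile 29096 bp downstream had a difference of -23.1 points in the authors' deposited table. Its CpG-rich promoter window, printed above, thus contributed 0 tiles to any comparison.

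Of the antagonists that bind Lrp5 and Lrp6, Dkk1 (chromosome 19, 30545876 to 30549496) gained in both lines at the tile 30549201 to 30549400, centred 196 bp inside the gene. That tile's difference was 32.8 points (line 1) and 30.8 points (line 3) in the authors' deposited tables. Line 3 extended it over the neighbouring tiles, with 54.8 and 37.8 points at 396 and 596 bp from the start in the authors' deposited table. These 3 adjoining tiles formed the longest run of gained tiles at a member in line 3 with BrafV600E, and Sfrp2 had a run of 3 in line 1.

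Dkk2 (chromosome 3, 132085266 to 132180304) went in opposite directions in the lines at 2 tiles upstream of its start. At 132084201 to 132084400 line 1 gained 41.0 points and line 3 had -35.1 points, and at 132084401 to 132084600 line 1 gained 48.4 points and line 3 had -34.6 points, per the authors' deposited tables. A gain of that size bounds the control of line 1 at 59.0% methylation or less at the first of these tiles, while the loss puts the control of line 3 at 35.1% or more, and these ranges overlap. The first of these tiles also lies within 2 kb of the small nuclear RNA gene Gm22421. Just past the start, line 3 gained 47.8 points at 132085401 to 132085600 and had -23.6 points at the adjoining tile in the authors' deposited table. The q-values at the second upstream tile, 0.00805 in line 1 and 0.00991 in line 3, were close to the authors' limit in the authors' deposited tables.

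Dkk3 (chromosome 7, 112116019 to 112159482) gained in both lines at different tiles, all within 2 kb of its upper-coordinate end. Line 1 gained 25.4 and 52.6 points at tiles centred 1182 and 782 bp inside that end, and line 3 gained 100 points at the tile centred 1582 bp inside it, in the authors' deposited tables. A difference of 100 points means that the tile read as fully methylated in the BrafV600E library and as unmethylated in the control; its q-value of 0.00205 is far weaker than the 6.17e-23 of the gain of 47.8 points at Dkk2 in the authors' deposited table.

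**Figure D3:**
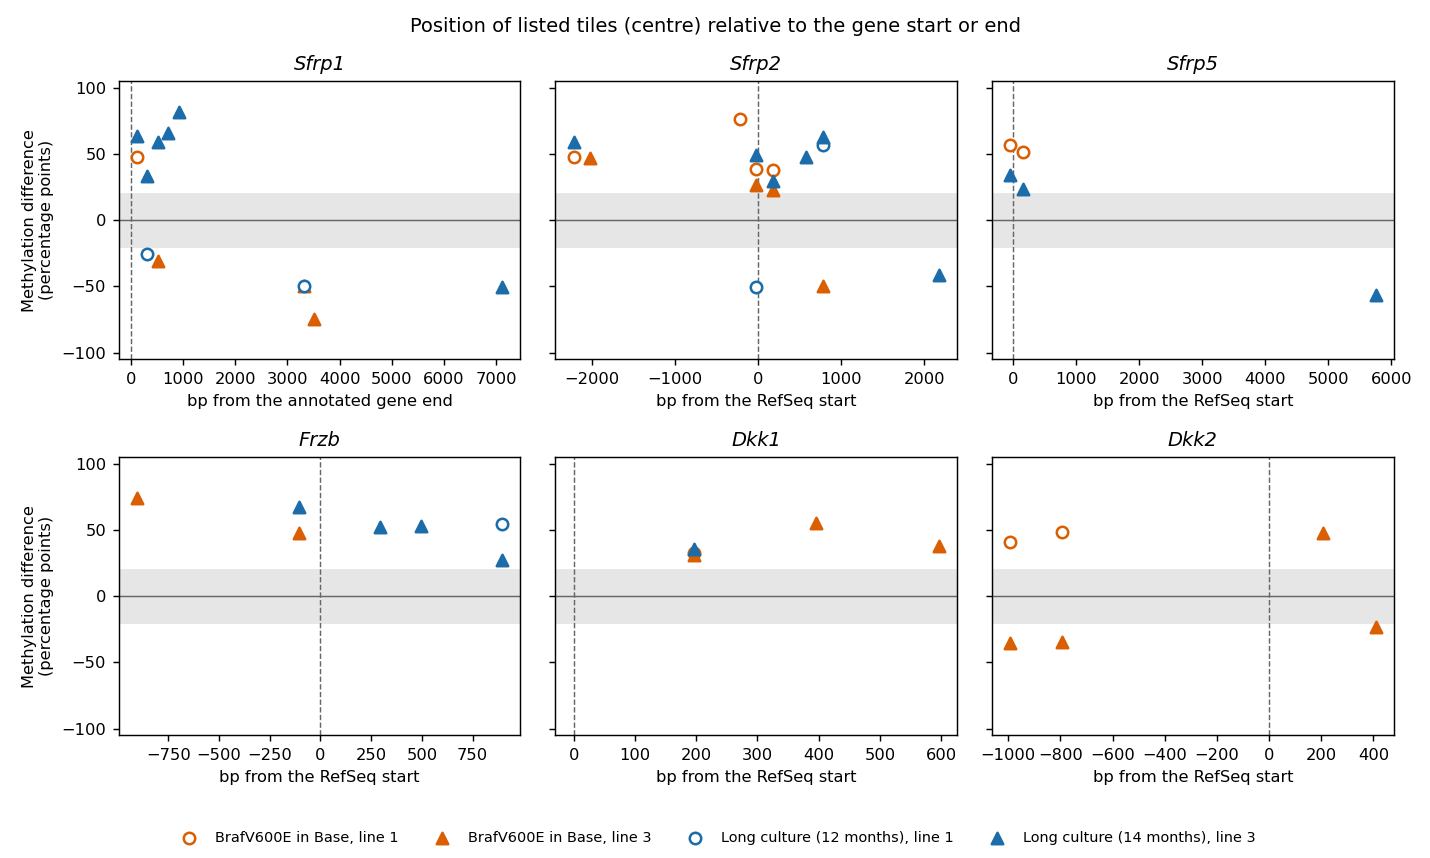
Listed tiles of 6 genes by distance of the tile's centre from the RefSeq start in bp, positive into the gene (for Sfrp1, from its lower-coordinate end, since no start was used), against the authors' methylation difference in percentage points; circles are line 1, triangles line 3, orange BrafV600E and blue long culture, and the grey band marks differences the tables do not list. At Sfrp2, Sfrp5, Frzb and Dkk1 gains lie close to the start. Sfrp2 also has losses there, of -50.6 points over the start (line 1, long culture) and -50.0 points 779 bp past it (line 3, BrafV600E) in the authors' deposited tables. At Dkk2 the upstream tiles have opposite signs in the lines, and at Sfrp1 the tiles over 3 kb inside are all losses. At 3317 bp the orange triangle is hidden behind the blue circle.

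The second comparison set empty-vector organoids after 12 or 14 months against those at 2 months, again line by line. At these genes 22 tiles were listed in line 3 and 5 in line 1. The tables as a whole differ in the same sense, with 21524 tiles in line 3 and 8263 in line 1. In line 3 Sfrp1, Sfrp2, Sfrp5, Frzb, Dkk1 and Dkk3 gained, led by a run of 5 adjoining tiles at Sfrp1. In line 1 only Sfrp2 and Frzb gained. Sfrp4, Dkk2, Dkk4 and Wif1 had 0 listed tiles with long culture in either line.

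The 6 gaining members of line 3 compare with 20.3% of all protein-coding genes, and its 4 losing members with 12.2%. In line 1 2 members gained against 8.55% of genes and 2 lost against 10.9%. A gain in both lines was seen at 2 members against 6.5% of genes, and a loss in both lines at 2, Sfrp1 and Sfrp2, against 4.07%. The losses at Sfrp1 and Sfrp2 were at different tiles in the 2 lines. In at least 1 line 6 members gained against 22.3% of all genes and 4 lost against 19.0%. Of the 9828 genes with a tile in any comparison 49.7% gained and 42.3% lost, beside 6 and 4 of the 9 listed members. The losing share was again near that of this set, which was picked by having a listed tile, and above that of all genes. Gains made up 40.9% of all listed tiles in line 1 and 71.9% in line 3, and 2 of 5 and 18 of 22 at the members. Members' gains had medians of 55.8 points in line 1 and 50.8 in line 3, beside 39.5 and 44.2 over all gained tiles of the authors' deposited tables. Without line 3, whose older library has the conflicting label, the gaining members fall to 2 and the gained tiles from 20 to 2.

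At Sfrp1 line 3 gained at all 5 tiles from 23411401 to 23412400, a run of 1000 bp at the lower-coordinate end of the gene. From that end inward the gains were 63.5, 33.1, 59.0, 65.9 and 81.7 points in the authors' deposited table. The q-value was 1.72e-134 at the first of these tiles and 0.000142 at the last, the one with the largest difference, in the authors' deposited table. The gain of 81.7 points requires at least 81.7% methylation at 14 months and at most 18.3% at 2 months in the authors' deposited table. A run of at least 5 adjoining gained tiles, a criterion chosen after these values were seen, occurred at 1.5% of all protein-coding genes in that table. Line 1 went the other way, with -25.5 points at the second tile of the run and -49.3 points 3317 bp into the gene in the authors' deposited table. Line 3 had a single loss at Sfrp1, of -50.2 points 7117 bp in, per the authors' deposited table. The third tile of the run, which gained 59.0 points with long culture in line 3, had -30.7 points with BrafV600E in the same line in the authors' deposited tables.

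Sfrp2 gained in both lines at 83767001 to 83767200, 779 bp past its start, by 57.0 points in line 1 and 62.7 points in line 3, per the authors' deposited tables. At the tile over the start (83766201 to 83766400) the lines moved in opposite directions, with -50.6 points in line 1 and 49.5 points in line 3, per the authors' deposited tables. This tile was the sole member tile listed in all 4 comparisons, and line 1 with long culture was the sole loss among them. The values bound the 2-month levels: line 1 had at least 50.6% methylation there and line 3 at most 50.5%, from the authors' deposited tables. Line 3 also gained 29.4, 47.3 and 59.0 points at tiles centred 179 and 579 bp past and 2221 bp before the start, and had -41.1 points 2179 bp past it, per the authors' deposited table.

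Frzb gained in both lines at 80446401 to 80446600, 896 bp inside the gene, by 54.6 points in line 1 and 27.2 points in line 3, per the authors' deposited tables. Line 3 added gains of 53.3, 52.1 and 67.6 points at 496 and 296 bp inside and 104 bp upstream of the start in the authors' deposited table. With 7 gains and 0 losses over the comparisons, Frzb shared a one-way record with Dkk1, which had 5 gains and 0 losses. The tile upstream of the Frzb start gained in line 3 in both comparisons.

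Sfrp5 and Dkk1 gained at tiles already described for BrafV600E. Sfrp5 gained 34.3 points over its start and 23.3 points at the adjoining tile in line 3 of the authors' deposited table. Its loss of -56.3 points in that line, per the authors' deposited table, was centred 1471 bp outside the far end of the gene, within 2 kb of the neighbouring gene Zfyve27, so it cannot be assigned to either gene. At Dkk1 the tile at 30549201 gained 35.8 points in line 3 of the authors' deposited table, so this tile gained by 30.8 to 35.8 points in each of the 3 comparisons that list it. Dkk3 had 26.7 points at 112158201 and -52.0 points at the adjoining tile in line 3 of the authors' deposited table.

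Position relative to the RefSeq start was read for the 6 genes that have one, counting tiles centred within 1 kb of it. Of 34 such listings 29 were gains and 5 losses, at Sfrp2, Sfrp5, Frzb, Dkk1 and Dkk2. With BrafV600E 8 of 8 gained in line 1, beside 77.5% of all listed tiles within 1 kb of any RefSeq start, and 8 of 12 in line 3, beside 62.9%. With long culture 2 of 3 gained in line 1, beside 60.9%, and 11 of 11 in line 3, beside 89.3%. Listed tiles near starts were mostly gains throughout the genome, and the members' shares in line 3 with BrafV600E and in line 1 with long culture were near those of other genes. The members' other shares, 8 of 8 and 11 of 11, rest on few listings, and their distance from those of other genes was not tested. The 5 losses were 3 of the Dkk2 tiles and 2 of the Sfrp2 tiles.

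Agreement between the lines was read from the tiles listed in both. With BrafV600E these were 5 member tiles, 33.3% of the members' tiles in line 1 and 27.8% in line 3, and 3 had the same direction, while 73.9% of all such tiles did. With long culture there were 4, 80.0% of the members' tiles in line 1 and 18.2% in line 3, and 2 had the same direction, beside 68.5% of all such tiles. All 5 of the tiles with the same direction were gains: at Sfrp2 and Dkk1 with BrafV600E and at Sfrp2 and Frzb with long culture. Within line 3, 6 tiles were listed in both the BrafV600E and the long-culture comparison, which use different libraries, and 4 of them had the same direction, beside 51.9% of all such tiles. Line 1 had 1 such tile, over the Sfrp2 start, with opposite directions. Of the 39 distinct member tiles, 23 were listed in 1 comparison, 12 in 2, 3 in 3 and 1 in 4.

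Other genes of the pathway were counted in the same way, by gains and losses in both lines. Over all protein-coding genes 11.3% gained and 6.07% lost in both lines with BrafV600E, and 6.5% and 4.07% with long culture. Among 19 Wnt ligand genes, 13 gained in both lines with BrafV600E and 11 with long culture, and 3 and 0 lost in both. Losses in a single line were common among them. In at least 1 line 17 gained and 14 lost with BrafV600E, beside 27.4% and 24.8% of all genes. With long culture 17 gained and 9 lost in at least 1 line, beside 22.3% and 19.0%. Wnt9b gained over 5 tiles in line 1 and 8 in line 3 with long culture, by means of 37.4 and 38.6 points in the authors' deposited tables. Of 13 frizzled and alternative Wnt receptor genes 4 gained and 3 lost in both lines in each comparison. Fzd5 gained with BrafV600E, by means of 39.4 and 64.8 points in lines 1 and 3, and had means of -34.0 and -38.5 points with long culture in the authors' deposited tables. Of the 4 receptors to which Dkk proteins bind (Lrp5, Lrp6, Kremen1 and Kremen2) 0 gained and 0 lost in both lines in either comparison. In at least 1 line 2 of them gained and 1 lost with BrafV600E, beside 27.4% and 24.8% of all genes. With long culture 0 of them gained and 3 lost in at least 1 line, beside 22.3% and 19.0%. Among 13 other secreted or cell surface Wnt inhibitors 5 gained and 3 lost in both lines with BrafV600E, and 2 and 1 with long culture. Of 16 intracellular negative regulators 3 gained and 3 lost in both lines with BrafV600E, and 0 and 3 with long culture. Of 13 Wnt target and stem cell genes 3 gained and 2 lost in both lines with BrafV600E, and 1 and 1 with long culture. The lists overlap: Znrf3 and Rnf43 are also counted among the other secreted or cell surface inhibitors, and Axin2 among the intracellular regulators. With BrafV600E, Lgr5, the crypt stem cell receptor for R-spondins, had a mean gain of 50.7 points over 2 tiles in line 1. In line 3 it gained 81.2 points at 1 tile, per the authors' deposited tables. Znrf3, which encodes a ubiquitin ligase that removes Wnt receptors, had -52.1 and -23.6 points with BrafV600E, each at 1 tile, per the authors' deposited tables.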

How the data were processed

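The 8 bisulfite libraries were used as the submitters' tables of tiles. Per the submitters' processing notes, the tools were Bismark 0.14.3, methylKit 1.7.4, Trim Galore 0.4.4 and FastQC 0.11.7, with build GRCm38 (mm10). Coverage minimum and conversion rate: not given in the sources used here. Reads were 50 bp, per the labels' protocols. The authors deposited, per the file headers, the difference in percent methylation of each 200 bp tile with its p-value and q-value, for gained and lost tiles of each within-line comparison; lost tiles carry a negative sign. The limits of 20 points and q 0.01 come from the values. Depth is unknown, so no interval was computed.

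Tiles were joined to the RefSeq gene spans of GRCm38.p6 with 2 kb on either side by any overlap, with Python 3.11.15 and pandas 2.3.3; the search was tested on simulated data. The table gives no strand, so starts came from RefSeq promoter windows, which matched 6 of the 10 genes. Exons and introns were not used here. Background shares are over all protein-coding genes. All members are named; other pathway genes are at most 4 per list, with tiles of 1 direction only in both lines, ranked by tile count. Members and lists were chosen with earlier results of these data known. No test was run. Alternatives were other windows, stricter limits, merged regions, either line left out, and at least 2 tiles per gene, the last chosen after seeing the data.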

Additional observations from a re-analysis of the deposited data

Results flagged for a closer look

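Some results went in opposite directions in the 2 lines; with 1 comparison per line the difference between lines was not tested. With BrafV600E, all listed Sfrp1 tiles gained in line 1 (1 tile, 47.9 points) and lost in line 3 (3 tiles, mean -51.7 points), at different tiles, in the authors' deposited tables. At Dkk2 the tile at 132084201 had 41.0 points in line 1 and -35.1 in line 3, and the tile at 132084401 had 48.4 and -34.6, in the authors' deposited tables. With long culture, the Sfrp1 tile at 23411601 had -25.5 points in line 1 and 33.1 in line 3, and the Sfrp2 tile at 83766201 had -50.6 and 49.5, in the authors' deposited tables. The first 3 rest on the line 1 BrafV600E library and the others on the 14-month library, whose labels conflict; the part of a label error in them was not tested.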

How the results depend on the processing

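Of the counts of members and tiles recomputed under the alternatives, 69 stayed within 1.5 times the reported value and 23 did not. With BrafV600E, leaving out each line gave 5 to 7 gaining members (8 reported), 1 to 4 losing members (5), 10 to 14 gained tiles (24) and 1 to 8 lost tiles (9). With long culture it gave 2 to 6 gaining members (6), 2 to 4 losing members (4), 2 to 18 gained tiles (20) and 3 to 4 lost tiles (7). At a difference of at least 40 points, losing members with BrafV600E were 3 and lost tiles 4, and with long culture gaining members were 3 and gained tiles 13. With q under 0.001 the members gaining in both lines with BrafV600E fell from 4 to 1. Merging tiles within 500 bp left 15 gained and 5 lost regions with BrafV600E and 8 gained regions with long culture. Within 2 kb of the gene ends only, tiles lost with long culture were 4. With at least 2 tiles per gene and line, 2 members lost in at least 1 line and 1 gained in both lines with BrafV600E. With long culture 1 lost in at least 1 line and 0 gained in both. The mean of Dkk2 in line 3 with BrafV600E changed sign, to 12.1 points over the gene alone, 47.8 at 40 points and 6.33 at q under 0.001. At 40 points so did the means of Sfrp2 in line 3 with BrafV600E (-1.62) and of Sfrp5 in line 3 with long culture (-56.3); fewer tiles enter each. Means by member had no tile left in 2 cases for the gene alone, 2 at 40 points, 3 at q under 0.001 and 1 within 2 kb of the ends. No paired analysis was possible because the reported counts come from no test; the deposited values are themselves differences within a line.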
